A study of Mus musculus with 6 samples.

Results

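The platelet and megakaryocyte genes described here are 9 genes known for the cells that make platelets: Pf4, Ppbp, Itga2b, Gp1ba, Gp1bb, Gp9, Gp5, Gp6 and Treml1. They were chosen by symbol, with earlier results of these data known, and all 9 were found among the 49315 genes of the deposited count table. The study examined Lamp1, a protein of the lysosome membrane, as a surface mark of senescent cells in lungs injured with bleomycin (BLM). The mice were male C57BL/6J (C57BL/6 in the labels), and their age is not given in the sources used here. BLM-treated mice received bleomycin sulfate at 3 or 3.5 to 4 mg/kg and sham-treated mice received sterile saline, each by oropharyngeal instillation, and lungs were taken on day 21. Between 2 and 3 lungs of a treatment were pooled per tube, dissociated with collagenase, strained and treated with red blood cell lysis buffer, so that values of separate animals are not available. Cells were left unsorted or were sorted by antibody to surface Lamp1 into Lamp1-enriched and Lamp1-depleted fractions, and polyA RNA was sequenced from 1 library for each of the 6 conditions. Cells were stained with 7-AAD for viability, and the captions name size, singlets and viability as gates for other flow cytometry of the study. A gating scheme for Lamp1-positive cells is named in a supplementary caption, but its settings, and whether particles as small as platelets passed, are not given in the text used here.

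In sham-treated mice the unsorted library held 40742095 counted reads, the Lamp1-depleted library 39609874 and the Lamp1-enriched library 45090413. In BLM-treated mice the same fractions held 39728284, 30236120 and 52918696 reads. The BLM Lamp1-depleted library stood apart from the others, because 38.4% of its reads fell on the transcript Gm26917, against 0.884% to 7.10% elsewhere, which left 18636423 reads for all other genes. Mitochondrial genes took 5.43% of reads in sham unsorted, 4.85% in sham Lamp1-depleted and 3.53% in sham Lamp1-enriched cells. In BLM they took more in each fraction, 8.06%, 8.05% and 4.89% in the same order. The part of RNA quality in the values below was not tested. Cells were sorted on Lamp1 protein at the surface, whereas the values here are RNA, so Lamp1 RNA is not a direct check of the sort. The log2 ratio of Lamp1 RNA between the sorted fractions, Lamp1-enriched over Lamp1-depleted, was 1.75 for sham and 1.77 for BLM. Against unsorted cells, Lamp1-enriched cells had a Lamp1 log2 ratio of 0.62 (0.59 to 0.65) for sham but -0.41 (-0.44 to -0.38) for BLM. Ptprc, the pan-leukocyte marker Cd45, had log2 ratios between the sorted fractions of -3.68 and -2.87.

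Platelets are cell fragments without a nucleus that megakaryocytes shed into the blood, and they carry RNA made in the megakaryocyte. They hold on to a damaged vessel through receptors for von Willebrand factor and collagen, bind to each other through fibrinogen, and release chemokines from their granules. The lung holds many platelets in its dense capillary bed, and in mice megakaryocytes also release platelets there.

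Pf4 and Ppbp encode chemokines of the alpha granules. On GRCm38 they are neighbours on the plus strand, Ppbp at chr5:90768518-90770063 and Pf4 at chr5:90772435-90773383, with 2371 bases between them and 3 exon blocks each. Itga2b (chr11:102453297-102470122, minus strand, 28 exon blocks) encodes the alpha subunit of the fibrinogen receptor. The receptor for von Willebrand factor is assembled from 4 of the gene products. Gp1ba (chr11:70639122-70642036, plus strand) encodes the chain that binds von Willebrand factor, and Gp1bb (chr16:18620317-18622403, minus strand) the chain joined to it by a disulfide bond. Gp9 (chr6:87778072-87779768, plus strand) and Gp5 (chr16:30307685-30310779, minus strand) encode partners in the complex, of which Gp5 is also cleaved by thrombin. Gp6 (chr7:4363965-4397744, minus strand, 8 exon blocks) encodes the collagen receptor that signals through the Fc receptor gamma chain. Treml1 (chr17:48359916-48367176, plus strand, 5 exon blocks) encodes a receptor kept in the granule membrane and brought to the surface when platelets are activated. The values of Gp1bb are the least certain, because its 2087 exon bases overlap Sept5 and Gm49601 on the same strand and 149 of them (7.14%) are shared with no other gene. The strand setting used for counting is not given in the sources used here.

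Promoter letters were examined because the 9 genes belong to the same cell lineage, whose known regulators include GATA, ETS and RUNX factors and NF-E2. All 9 genes had an entry among 32851 promoters of RefSeq (GRCm38.p6), each reaching from 250 bases before to 50 bases after the gene start. GATA letters (AGATAA or TGATAA, either strand) occurred in 4 of the 9 promoters, against 18.6% of all promoters. ETS letters (AGGAAG or CGGAAG) occurred in 6 of 9, against 46.5%, and RUNX letters (TGTGGT or TGCGGT) in 1 of 9, Gp9, against 22.4%. The core of NF-E2 and AP-1 (TGAGTCA) occurred in 0 of 9, against 5.20%. None of the 16 matches overlapped another. The 4 promoters with GATA letters are shown with these letters in capitals, each read 5′ to 3′ on the strand of its gene: Pf4 (chr5:90772185-90772484, plus), Gp1ba (chr11:70638872-70639171, plus), Gp5 (chr16:30310732-30311031, minus) and Gp6 (chr7:4397695-4397994, minus).
Pf4: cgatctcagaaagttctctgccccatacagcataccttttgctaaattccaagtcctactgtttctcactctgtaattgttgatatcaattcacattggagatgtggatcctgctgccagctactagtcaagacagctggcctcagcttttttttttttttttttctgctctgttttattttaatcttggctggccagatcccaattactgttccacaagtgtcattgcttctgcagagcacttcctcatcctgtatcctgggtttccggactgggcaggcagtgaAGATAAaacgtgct
Gp1ba: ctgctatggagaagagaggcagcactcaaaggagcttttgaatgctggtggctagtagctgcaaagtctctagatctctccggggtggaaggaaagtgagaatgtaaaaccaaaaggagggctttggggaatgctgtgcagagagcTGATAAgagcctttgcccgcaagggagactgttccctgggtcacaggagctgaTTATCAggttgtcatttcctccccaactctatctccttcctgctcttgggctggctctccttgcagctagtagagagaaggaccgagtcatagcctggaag
Gp5: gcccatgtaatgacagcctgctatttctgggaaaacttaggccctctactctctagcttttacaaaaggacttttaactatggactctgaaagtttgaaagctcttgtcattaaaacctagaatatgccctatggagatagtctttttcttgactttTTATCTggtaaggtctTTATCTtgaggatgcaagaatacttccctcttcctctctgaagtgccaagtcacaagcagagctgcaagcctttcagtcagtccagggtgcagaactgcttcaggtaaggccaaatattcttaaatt
Gp6: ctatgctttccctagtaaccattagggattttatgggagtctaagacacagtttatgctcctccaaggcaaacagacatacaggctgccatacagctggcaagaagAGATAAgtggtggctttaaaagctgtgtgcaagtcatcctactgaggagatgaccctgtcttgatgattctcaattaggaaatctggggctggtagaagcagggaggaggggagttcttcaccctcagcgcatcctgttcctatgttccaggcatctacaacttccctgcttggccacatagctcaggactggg
The letters lie at 37 bases after the start in Pf4, at -104 and -51 in Gp1ba, at -93 and -77 in Gp5 and at -144 in Gp6, counted to the first base of each match. A match describes the sequence and does not show that a factor binds.

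Levels of a gene are given as CPM, its share of the reads of a library after TMM scaling (trimmed mean of M values). Ratios between libraries are given as log2 ratios with a 95% counting interval in parentheses. These intervals cover counting error only, and reads amplified by PCR are not independent molecules. With 1 library per condition no p-value could be had for a comparison of 2 libraries. In bulk libraries such as these, fewer cells of a type and less RNA per cell cannot be told apart.

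Reads on the 9 genes together came to 325 CPM in sham unsorted, 44.7 in sham Lamp1-depleted and 1066 in sham Lamp1-enriched cells. The BLM libraries gave 57.1, 14.7 and 156 CPM in the same order. The genes were thus highest in Lamp1-enriched cells of each treatment, and each fraction was lower in BLM than in sham. The summed level in sham Lamp1-enriched cells was 23.8-fold that in sham Lamp1-depleted cells, and in BLM the same ratio was 10.6-fold.

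**Figure D1:**
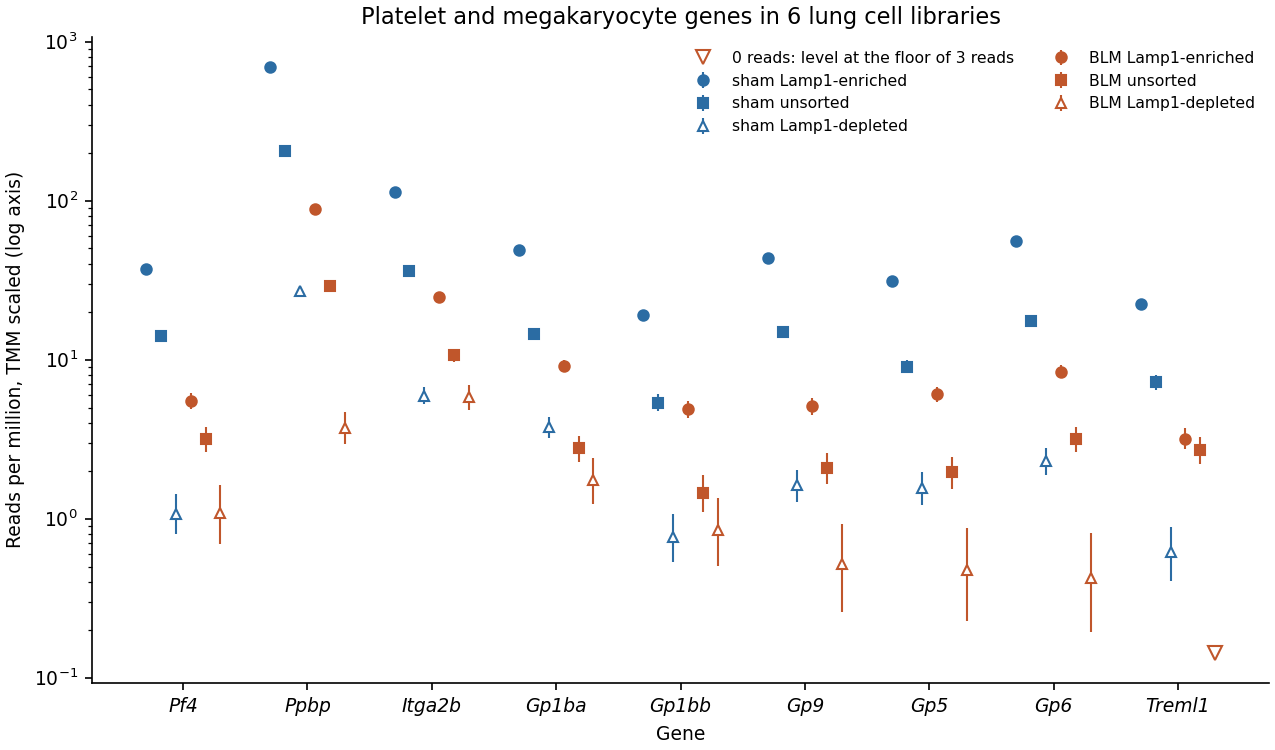
Level of each of the 9 genes in the 6 libraries, in CPM on a log axis, with 95% counting intervals; circles are Lamp1-enriched, squares unsorted and open triangles Lamp1-depleted cells, blue for sham and orange for BLM. The sham Lamp1-enriched library is highest for all 9 genes, from 19.0 (Gp1bb) to 694 (Ppbp) CPM, and the inverted triangle marks the floor of 3 reads, 0.142 CPM, for the 0 reads of Treml1 in BLM Lamp1-depleted cells.

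Of the chemokines, Ppbp had the higher level per length, 1697 TPM against 137 TPM for Pf4 in sham Lamp1-enriched cells. In sham-treated mice it measured 206 CPM in unsorted, 27.1 in Lamp1-depleted and 694 in Lamp1-enriched cells. In BLM-treated mice it measured 29.1, 3.74 and 88.7 CPM. Every fraction of the BLM lung was thus below its sham counterpart for Ppbp, while the Lamp1-enriched fraction was far above the Lamp1-depleted one in both treatments. The sorting ratio was log2 4.68 (4.60 to 4.76) in sham and 4.56 (4.25 to 4.91) in BLM, and with total counts only it was 4.50 (4.42 to 4.59) in sham and 5.12 (4.81 to 5.47) in BLM. Ppbp was 7.07-fold lower in BLM than in sham in unsorted cells, 7.82-fold lower in Lamp1-enriched cells and 7.22-fold lower in Lamp1-depleted cells, the last becoming 11.9-fold with total counts only. Pf4, its neighbour on the chromosome, had 14.1 CPM in unsorted, 1.07 in Lamp1-depleted and 37.2 in Lamp1-enriched cells of sham. In BLM the values were 3.17, 1.09 and 5.49 CPM. Pf4 was lower in BLM in unsorted and Lamp1-enriched cells but level in Lamp1-depleted cells, where the counts were 49 reads in sham and 23 in BLM. Its sorting ratio was log2 5.10 (4.70 to 5.55) in sham and 2.32 (1.72 to 3.01) in BLM. The log2 ratio of BLM over sham in Lamp1-depleted cells was 0.02 (-0.76 to 0.76), and its sign turned to -0.69 with total counts only, to -0.05 with totals outside Gm26917 and to -0.04 with thinned counts.

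Itga2b, the fibrinogen receptor subunit, measured 36.1 CPM in sham unsorted, 5.94 in sham Lamp1-depleted and 114 in sham Lamp1-enriched cells. In BLM the values were 10.6, 5.82 and 24.9 CPM. In the Lamp1-depleted fraction alone the TMM-scaled level of Itga2b was close to that in sham. The sorting ratio was log2 4.25 (4.08 to 4.44) in sham and 2.09 (1.83 to 2.38) in BLM, the lowest of the 9 genes in BLM. Its BLM interval overlapped those of Pf4, Gp1ba and Gp1bb. Itga2b was 3.39-fold lower in BLM unsorted cells and 4.56-fold lower in BLM Lamp1-enriched cells. The log2 ratio of BLM over sham in Lamp1-depleted cells was -0.03 (-0.35 to 0.28), and its sign turned to 0.12 with DESeq2 size factors and to 0.05 with thinned counts. With total counts only it was -0.75 (-1.07 to -0.44), an interval below 0. Itgb3, the other subunit of the fibrinogen receptor, which pairs with a different alpha subunit in many other cells, had 50.2, 42.1 and 155 CPM in the sham libraries in the same order. In BLM it had 23.0, 53 and 44.5 CPM. Its sorting ratio was lower than that of Itga2b in both treatments, at log2 1.88 (1.80 to 1.95) in sham and -0.25 (-0.35 to -0.15) in BLM. Total counts only shifted every BLM sorting ratio by 0.56, which turned the sign of Itgb3 in BLM.

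Among the genes of the von Willebrand factor receptor, Gp1ba measured 14.5 CPM in sham unsorted, 3.77 in sham Lamp1-depleted and 49.2 in sham Lamp1-enriched cells, and 2.76, 1.75 and 9.15 in BLM. Its sorting ratio of log2 3.70 (3.48 to 3.94) was the lowest of the 9 in sham, and in BLM it was 2.38 (1.90 to 2.91). Gp1ba was lower in BLM in all 3 fractions, least so in Lamp1-depleted cells, at log2 -1.10 (-1.66 to -0.59). Gp9 measured 15.0, 1.62 and 43.6 CPM in the sham libraries and 2.08, 0.521 and 5.10 in the BLM libraries. It was the furthest below sham of the 9 genes in Lamp1-enriched cells, 8.53-fold, and was 7.19-fold lower in unsorted cells. The intervals of Gp9 and Ppbp overlapped in Lamp1-enriched cells, so this rank is not settled. Gp5 measured 9.02, 1.56 and 31.2 CPM in sham and 1.95, 0.473 and 6.05 in BLM. It was 4.60-fold lower in BLM unsorted and 5.15-fold lower in BLM Lamp1-enriched cells. Sorting ratios of Gp9 were log2 4.74 (4.41 to 5.10) in sham and 3.26 (2.43 to 4.31) in BLM, and those of Gp5 were 4.32 (3.98 to 4.69) and 3.64 (2.78 to 4.75). The wide BLM intervals reflect 11 reads of Gp9 and 10 reads of Gp5 in BLM Lamp1-depleted cells. Gp1bb, with the reservation on shared exon bases, measured 5.38, 0.768 and 19.0 CPM in sham and 1.44, 0.852 and 4.88 in BLM. Its sorting ratio was log2 4.61 (4.14 to 5.16) in sham and 2.5 (1.83 to 3.29) in BLM. The log2 ratio of BLM over sham for Gp1bb in Lamp1-depleted cells was 0.15 (-0.76 to 1.01), and its sign turned to -0.56 with total counts only. Sept5, which overlaps the Gp1bb exon, ran the other way in Lamp1-enriched cells, with a log2 ratio of BLM over sham of 2.37 (2.03 to 2.74) against -1.96 (-2.16 to -1.76) for Gp1bb.

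Gp6, the collagen receptor, measured 17.5 CPM in sham unsorted, 2.30 in sham Lamp1-depleted and 56.0 in sham Lamp1-enriched cells. In BLM it measured 3.17, 0.426 and 8.40 CPM. Like Ppbp, it was lower in every BLM fraction and kept a high sorting ratio, log2 4.60 (4.32 to 4.90) in sham and 4.26 (3.36 to 5.44) in BLM. The BLM level was lower than sham by 5.51-fold in unsorted, 6.66-fold in Lamp1-enriched and 5.26-fold in Lamp1-depleted cells, the last resting on 9 reads in BLM.

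Treml1, the granule membrane receptor, measured 7.21 CPM in sham unsorted, 0.614 in sham Lamp1-depleted and 22.4 in sham Lamp1-enriched cells. In BLM it measured 2.71 CPM in unsorted and 3.19 in Lamp1-enriched cells. No Treml1 read was counted in BLM Lamp1-depleted cells, where the floor of 3 reads equals 0.142 CPM. The sham sorting ratio of log2 5.16 (4.65 to 5.78), a 35.8-fold difference, was the highest of the 9 genes. Its interval held the sham ratio of Pf4, 5.10, so this rank is not settled. In BLM Lamp1-enriched cells Treml1 was at least 22.5-fold higher than in Lamp1-depleted cells by this floor, and the lower end of the counting interval was log2 4.18. BLM Lamp1-enriched and BLM unsorted cells did not differ in Treml1 beyond the counting interval, at log2 0.23 (-0.12 to 0.60). In unsorted cells Treml1 was the least far below sham of the 9 genes, 2.65-fold, yet in Lamp1-enriched cells it was 6.99-fold lower in BLM. Its interval in unsorted cells overlapped those of Itga2b and Gp1bb.

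In the sham libraries all 9 genes were at least 8-fold (log2 3) higher in Lamp1-enriched than in Lamp1-depleted cells. By the same rule 6.21% of 21867 genes were called, counting those that reached 10 reads in either library. The median log2 ratio of the 9 genes was 4.61, beside -0.01 over all genes tested. In BLM-treated mice 5 of the 9 genes (Ppbp, Gp9, Gp5, Gp6 and Treml1) were at least 8-fold higher, against 10.6% of 21838 genes, with a median of 3.26 beside 0.29 over all genes; the median is unchanged with Treml1 at its bound. The other 4 genes lay between log2 2.09 and 2.5, and with total counts only 6 of 9 were called, against 14.6% of all genes with that scaling. Scaling by total counts only shifted every sham log2 ratio of this comparison by -0.17 and every BLM ratio by 0.56. With DESeq2 size factors the BLM ratios shifted by -0.15, and totals outside Gm26917 shifted the ratios by -0.21 in sham and -0.12 in BLM.

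**Figure D2:**
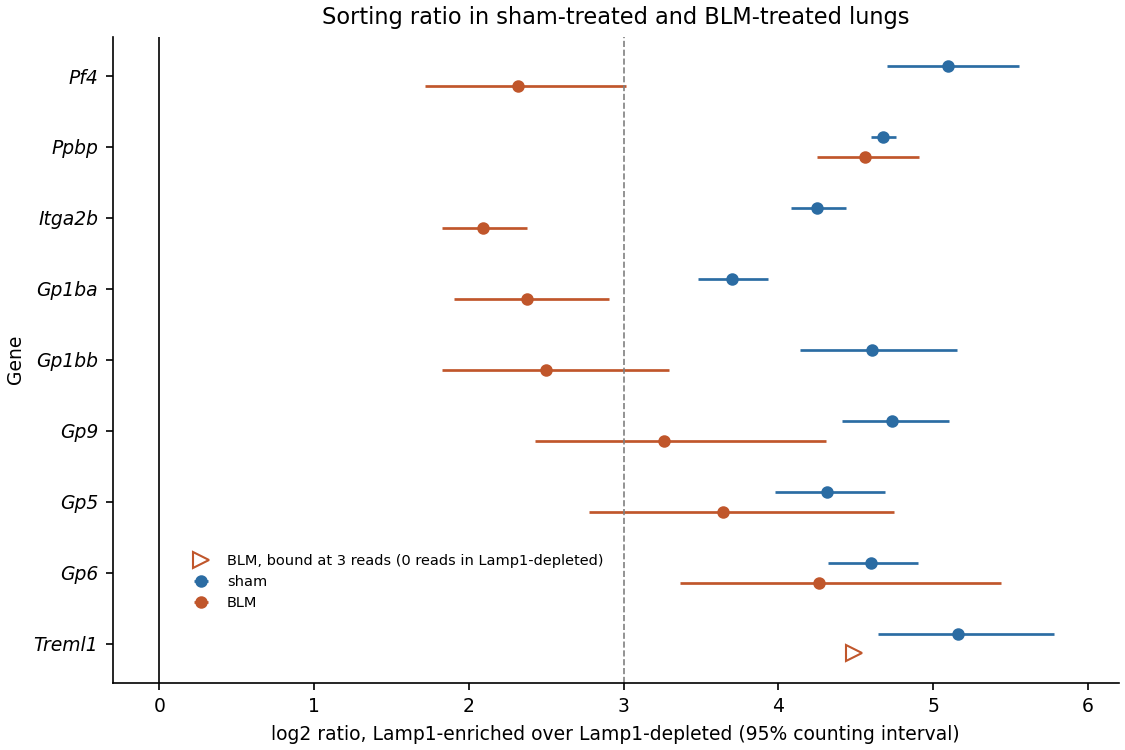
Log2 ratio of Lamp1-enriched over Lamp1-depleted cells for each gene, sham in blue and BLM in orange, with 95% counting intervals; the dashed line is the 8-fold threshold and the open triangle Treml1 in BLM with its 0 reads set to the floor of 3. All 9 sham ratios lie between 3.70 and 5.16, while the BLM ratios of Pf4, Itga2b, Gp1ba and Gp1bb lie between 2.09 and 2.5.

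The sorting ratios differed between the treatments more for some of the genes than for others. The BLM log2 ratio minus the sham log2 ratio was -2.78 (-3.51 to -2.05) for Pf4, -2.16 (-2.48 to -1.84) for Itga2b and -2.11 (-2.94 to -1.27) for Gp1bb. It was -1.48 (-2.39 to -0.56) for Gp9 and -1.32 (-1.85 to -0.79) for Gp1ba. For these 5 genes the counting interval of the difference lay below 0, except that with total counts only the interval of Gp9 held 0, at -0.74 (-1.66 to 0.17). The differences of Ppbp, -0.11 (-0.44 to 0.22), of Gp6, -0.34 (-1.31 to 0.63), and of Gp5, -0.68 (-1.63 to 0.27), had intervals that held 0. With total counts only these 3 turned sign, to 0.62 (0.29 to 0.95) for Ppbp, 0.40 (-0.57 to 1.36) for Gp6 and 0.06 (-0.89 to 1.01) for Gp5. Over the 8 genes with more than 3 reads in each sorted library the median difference was -1.40, beside 0.21 over 20463 genes tested in both treatments, of which 41.0% lay below 0. The median over all 9 genes, -1.32, moved to -0.59 with total counts only, a scaling that moves every gene by the same amount.

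Against unsorted cells, all 9 genes were at least 2-fold (log2 1) higher in sham Lamp1-enriched cells, where 2.63% of 22323 genes were. Their log2 ratios ran from 1.40 (1.27 to 1.53) for Pf4 to 1.82 (1.62 to 2.02) for Gp1bb, with a median of 1.68 beside -0.03 over all genes. In BLM 7 of 9 genes were at least 2-fold higher, against 12.6% of 22149 genes, with a median of 1.40 beside 0.04. The exceptions were Pf4, at log2 0.79 (0.49 to 1.10), and Treml1. In Lamp1-depleted cells of sham-treated mice all 9 genes were at least 2-fold lower than in unsorted cells, against 30.4% of 22925 genes, with a median of -2.92 beside -0.03. In BLM 6 of 9 were lower by that rule, against 33.6% of 21431 genes, with a median of -1.96 beside -0.34. The 3 genes not called were Gp1ba at log2 -0.65 (-1.24 to -0.11), Gp1bb at -0.75 (-1.61 to 0.02) and Itga2b at -0.87 (-1.17 to -0.58), and with total counts only they passed too, so that 9 of 9 were called, against 45.7% of all genes with that scaling. Total counts only shifted the Lamp1-enriched ratios by -0.22 for sham and 0.05 for BLM, and the Lamp1-depleted ratios by -0.05 for sham and -0.51 for BLM. Totals outside Gm26917 shifted the sham Lamp1-enriched ratios by -0.23, and DESeq2 size factors the BLM Lamp1-depleted ratios by 0.15. Alveolar macrophage genes were lower than in unsorted cells in both sorted fractions. Their medians were -1.98 in Lamp1-enriched and -2.19 in Lamp1-depleted cells of sham, and -3.02 and -3.63 in BLM. T cell and B cell genes were higher in sham Lamp1-depleted than in unsorted cells, with medians of 3.81 and 4.08. The part of such differences in cell content in the ratios to unsorted cells was not tested. The comparisons share libraries, so their values stand side by side and are not independent.

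The libraries were next compared by treatment. In unsorted cells all 9 genes were at least 2-fold lower in BLM than in sham, against 16% of 22772 genes, with a median log2 ratio of -2.20 beside -0.07 over all genes. The ratios ran from -2.85 (-3.20 to -2.52) for Gp9 to -1.41 (-1.74 to -1.09) for Treml1. In Lamp1-enriched cells all 9 were again at least 2-fold lower, against 7.86% of 21671 genes, with a median of -2.74 beside 0.00. The ratios ran from -3.09 (-3.28 to -2.91) for Gp9 to -1.96 (-2.16 to -1.76) for Gp1bb. In Lamp1-depleted cells 6 of 9 were lower by this rule, against 22.3% of 20852 genes, with a median of -1.61 beside -0.20. With DESeq2 size factors 5 were, against 18.7% of all genes, because Gp1ba came to -0.95, and with total counts only 6 were, against 46.8% of all genes. The genes not called were Pf4, Itga2b and Gp1bb, whose counting intervals held 0 and whose signs turned with the scaling as given above. Treml1 in Lamp1-depleted cells had 28 reads in sham and 0 in BLM, a log2 ratio of -2.11 with the floor of 3 reads and a counting interval that reached up to -1.72. Reads summed over the 9 genes had log2 ratios of -2.51 (-2.57 to -2.45) in unsorted, -2.77 (-2.81 to -2.74) in Lamp1-enriched and -1.61 (-1.79 to -1.44) in Lamp1-depleted cells. Total counts only shifted every ratio of BLM over sham by -0.26 in unsorted, 0.01 in Lamp1-enriched and -0.72 in Lamp1-depleted cells. Totals outside Gm26917 shifted the unsorted ratios by -0.18, and DESeq2 size factors the Lamp1-depleted ratios by 0.15.

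**Figure D3:**
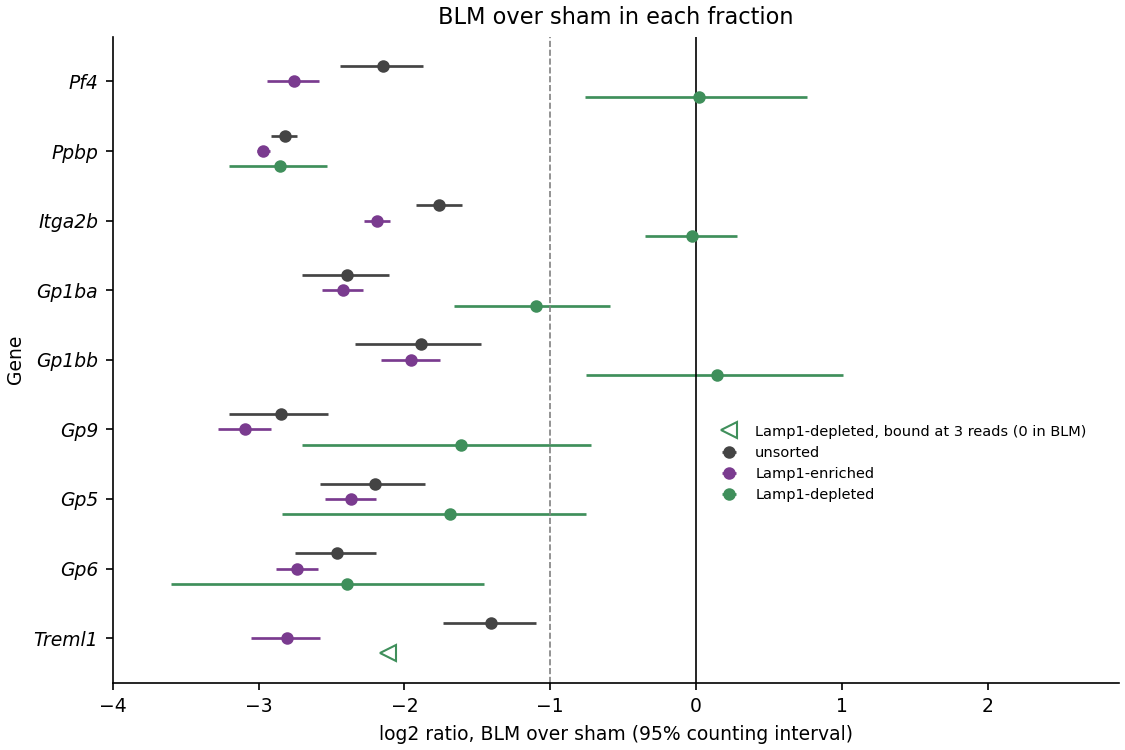
Log2 ratio of BLM over sham for each gene in unsorted (black), Lamp1-enriched (purple) and Lamp1-depleted (green) cells, with 95% counting intervals; the solid line is 0, the dashed line a level 2-fold lower and the open triangle Treml1 with its 0 reads in BLM set to the floor of 3. All unsorted and Lamp1-enriched ratios lie at -1.41 or lower, while Pf4, Itga2b and Gp1bb in Lamp1-depleted cells lie at 0.02, -0.03 and 0.15, with signs that turn under total counts only (Pf4, Gp1bb), totals outside Gm26917 (Pf4), thinned counts (Pf4, Itga2b) or DESeq2 size factors (Itga2b).

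The order of the 6 libraries was alike for most of the genes. For Ppbp, Itga2b, Gp9, Gp5, Gp6 and Treml1 the order from high to low was sham Lamp1-enriched, sham unsorted, BLM Lamp1-enriched, BLM unsorted, sham Lamp1-depleted and BLM Lamp1-depleted. Pf4 and Gp1bb had the last pair in the reverse order, and Gp1ba had sham Lamp1-depleted above BLM unsorted. Of the 45 pairs of neighbours in these orders, 36 differed beyond the counting interval and 9 did not. Sham and BLM Lamp1-depleted cells did not differ in Pf4, Itga2b or Gp1bb beyond the interval, though with total counts only they did in Itga2b. BLM unsorted and sham Lamp1-depleted cells did not differ in Ppbp, Gp9 or Gp5. BLM Lamp1-enriched and BLM unsorted cells did not differ in Treml1. In Gp1bb sham unsorted and BLM Lamp1-enriched cells did not differ, nor did BLM unsorted and BLM Lamp1-depleted cells, and with total counts only both pairs differed. With that scaling BLM unsorted and sham Lamp1-depleted cells did not differ in Gp6, and 7 of the 45 intervals held 0.

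Per length, as TPM in sham Lamp1-enriched cells, Ppbp was highest at 1697 TPM and ranked 28 among 48970 genes. Pf4 followed at 137 TPM and Gp9 at 131 TPM, and Itga2b, Gp1ba, Treml1, Gp5 and Gp6 lay between 25.2 TPM (Gp6) and 55.2 TPM (Itga2b). Gp1bb had 24.1 TPM over all its exon bases, but 337 TPM if its reads came from the unshared bases alone, which would place it above Pf4 and Gp9, so its place in this order is not settled. Within the von Willebrand factor receptor the TPM levels were thus unequal, with Gp9 above Gp1ba (47.9 TPM) and Gp5 (37.7 TPM).

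The make-up of the reads on the 9 genes does not depend on the scaling between libraries. Ppbp took 63.4% of these reads in sham unsorted, 60.5% in sham Lamp1-depleted and 65.1% in sham Lamp1-enriched cells. In BLM its share was 51.0% in unsorted, 25.5% (20.7 to 30.7, exact Clopper-Pearson interval) in Lamp1-depleted and 56.9% in Lamp1-enriched cells. Itga2b took 11.1%, 13.3% and 10.7% in the sham libraries and 18.7%, 39.7% (34.2 to 45.4) and 16.0% in the BLM libraries, in the same order. In BLM Lamp1-depleted cells Itga2b thus took the place of Ppbp as the member with the most reads, on a total of 310 reads. Gp1ba also had its highest shares in the Lamp1-depleted fractions, 8.43% (7.26 to 9.72) in sham and 11.9% (8.54 to 16.1) in BLM, against 4.48% to 5.87% in the other 4 libraries.

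**Figure D4:**
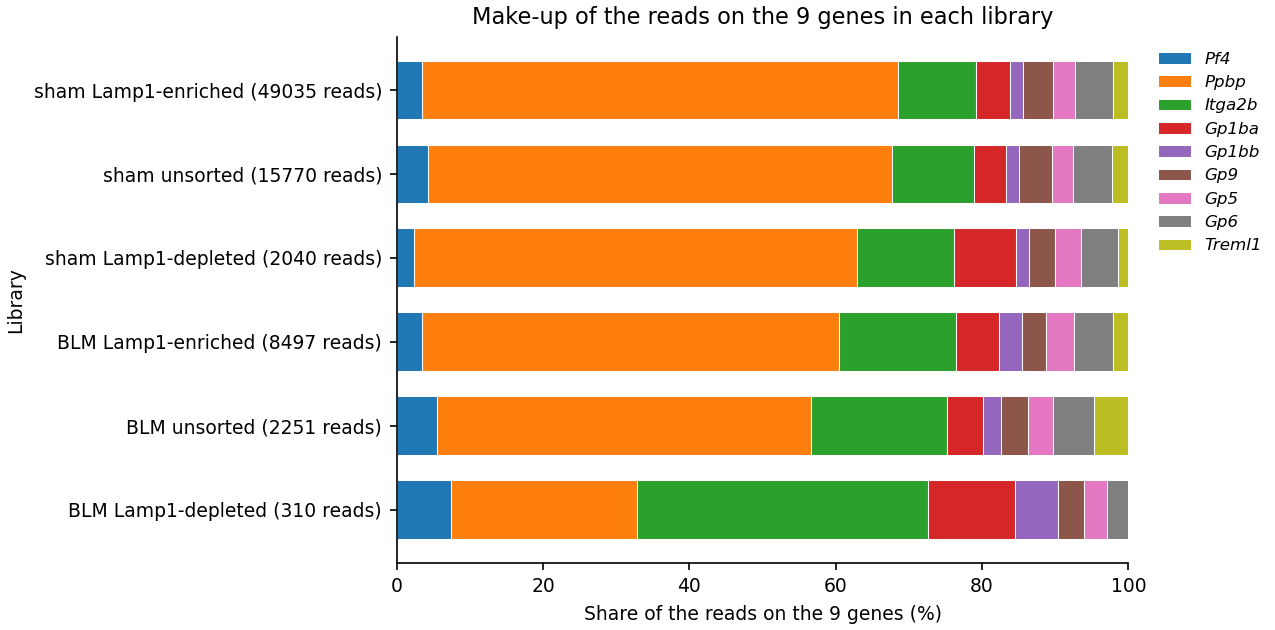
Share of each gene in the reads on all 9 genes, in percent, with 1 bar per library and the number of reads beside it. Ppbp (orange) takes 51.0% to 65.1% in 5 libraries and 25.5% in BLM Lamp1-depleted cells, where Itga2b (green) takes 39.7%.

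Over both treatments the sort could be tested, with the sham and BLM pools in the place of 2 repeats. They are different conditions, and for 5 of the 9 genes the TMM-scaled sorting ratio differed between them beyond the counting interval. The adjusted p therefore does not measure how well the sort repeats within a condition. In the edgeR quasi-likelihood test, which was run on the 4 libraries of sorted cells and blocked by treatment, all 9 genes were among the 4422 of 20593 genes (21.5%) called higher in Lamp1-enriched cells; 3964 were called lower. Each of the 9 was higher in 2 of 2 treatments, and Benjamini-Hochberg adjusted p ran from 5.12e-24 for Ppbp (edgeR quasi-likelihood log2 fold 4.53) to 2.83e-10 for Gp1bb (log2 fold 3.55). Gp1ba had the smallest log2 fold of the 9, followed by Itga2b at 3.10, and the median was 3.98. With total counts only the split over all genes was 2872 higher and 1564 lower. The highest adjusted p of any of the 9 genes under the alternatives tried was 0.000954 (Pf4, log2 fold 3.74 in the test of 4 libraries), from an edgeR quasi-likelihood fit to all 6 libraries. The test had 1 residual degree of freedom and pooled its dispersions over all genes, with a biological coefficient of variation of 0.316, so the adjusted p rests on genes varying alike. The treatments were not tested apart from each other. Because the 9 genes were chosen with earlier results of these data known, the count of 9 called is not an independent result.

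Genes were ranked by how closely their pattern over the 6 libraries followed the mean of the 9 genes, as the root mean square difference of centred log2 levels. The median over 17935 genes was 2.03. The nearest gene outside the 9 was Tubb1, the beta tubulin of platelets, at 0.144, and Mpig6b, an inhibitory receptor of megakaryocytes, was at 0.213. Tmem40 (0.228), Pls1 (0.254), Gm45750 (0.340), Hpgd (0.344), Myl9 (0.361), Ces2b (0.378) and Kank4 (0.423) were also among the nearest 10, and none of these was on a list used here. Hpgd had 128791 reads in sham Lamp1-enriched cells, where the 9 genes together had 49035. A near pattern is therefore not shown to be particular to platelet genes. In BLM Lamp1-depleted cells Gm45750 had 0 reads and Tmem40 and Ces2b had 1 each, so these distances depend on the prior. Of the 9 genes themselves, Gp5 (0.167), Gp9 (0.240), Gp6 (0.257) and Ppbp (0.442) were among the nearest 20 and Treml1, with its 0 reads in 1 library, ranked 5859. Among pairs of the 9, Itga2b and Gp1bb were most alike (0.194), then Ppbp and Gp6 (0.196), whereas the neighbours Pf4 and Ppbp differed by 0.933.

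Other genes of platelets were taken from lists. Of 12 further platelet receptors, 5 were at least 8-fold higher in sham Lamp1-enriched than Lamp1-depleted cells (median log2 2.22) and 6 in BLM (median 2.75). In BLM 4 of 12 were at least 2-fold lower in unsorted (median -0.76), 8 of 12 in Lamp1-enriched (median -1.91) and 4 of 11 in Lamp1-depleted cells (median -0.76). Their medians thus lay on the side of the 9 genes in each comparison, and nearer to 0. The edgeR quasi-likelihood test called 8 of the 12 higher with the sort and 0 lower. Ly6g6f stood with the 9 genes in sham, at log2 4.54 (3.30 to 6.60), and had 20 against 0 reads in BLM. Itga2, the collagen-binding integrin subunit, had 75.4, 23.2 and 109 CPM in sham and 41.2, 13.7 and 115 in BLM, and its level in Lamp1-enriched cells hardly differed between the treatments, at log2 0.08 (0.02 to 0.13). F2rl2, a thrombin receptor, had a sorting ratio of 2.04 (1.82 to 2.28) in sham and -0.68 (-1.03 to -0.33) in BLM. Tbxa2r, the thromboxane receptor, had 0.21 (-0.02 to 0.44) in sham and 0.82 (0.51 to 1.13) in BLM, and Pear1 had 0.82 (0.72 to 0.92) and 0.12 (0.02 to 0.23).

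Of 15 genes of platelet granules, cytoskeleton and signalling, 7 were at least 8-fold higher in sham Lamp1-enriched than Lamp1-depleted cells (median 2.53) and 3 in BLM (median 2.02). With BLM 8 of 15 were at least 2-fold lower in unsorted (median -1.05), 10 of 15 in Lamp1-enriched (median -1.23) and 4 of 15 in Lamp1-depleted cells (median -0.07). The list was mixed, with 8 genes called higher and 5 lower in the edgeR quasi-likelihood test of the sort. Tubb1 measured 31.7, 5.11 and 110 CPM in sham and 7.17, 1.18 and 20.2 in BLM, close to the pattern of the 9 genes. Its log2 ratio of BLM over sham was -2.14 (-2.33 to -1.96) in unsorted cells. Gng11, a G protein subunit, had sorting ratios of 4.19 (4.04 to 4.34) and 4.49 (4.14 to 4.89), and Gnaz of 5.11 (4.19 to 6.42) and 2.15 (1.25 to 3.28). Plek, Rasgrp2 and Bin2, which leukocytes also express, lay on the other side, with sham sorting ratios of -0.50 (-0.54 to -0.47), -0.95 (-1.03 to -0.88) and -2.42 (-2.54 to -2.31). In BLM they lay further below 0, at -1.30 (-1.35 to -1.25), -2.47 (-2.57 to -2.38) and -4.31 (-4.43 to -4.19).

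Among 8 factors of the megakaryocyte lineage, 3 were at least 8-fold higher in sham Lamp1-enriched than Lamp1-depleted cells (median 2.03) and 2 in BLM (median 1.07). With BLM 2 of 8 were at least 2-fold lower in unsorted (median -0.28), 4 of 8 in Lamp1-enriched (median -0.67) and 2 of 7 in Lamp1-depleted cells (median -0.19), and the edgeR quasi-likelihood test of the sort called 4 higher and 1 lower. Tal1, also a factor of endothelial cells, had sorting ratios of 3.39 (3.23 to 3.55) and 3.55 (3.32 to 3.79) but a log2 ratio of BLM over sham in Lamp1-enriched cells of 0.06. Runx1 and Fli1, which are broadly expressed in blood cells, had sham sorting ratios of -2.85 (-2.94 to -2.76) and -0.35 (-0.39 to -0.30). In BLM the ratio of Runx1 was -1.73 (-1.80 to -1.66), while that of Fli1 had the opposite sign, at 1.17 (1.09 to 1.24). Gfi1b had 52 reads in sham Lamp1-enriched cells and 1 in sham Lamp1-depleted cells, a log2 ratio of 5.12 with a wide interval (3.15 to 11.02). In BLM it had 14 against 9 reads, a log2 ratio of -0.70 (-2.04 to 0.66), and the edgeR quasi-likelihood test did not call it (log2 fold 1.80, Benjamini-Hochberg adjusted p 0.286).

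Genes that platelets share with endothelium included Vwf, the ligand of the receptor built from Gp1ba, Gp1bb, Gp9 and Gp5. Vwf measured 659, 118 and 2052 CPM in sham and 857, 163 and 3077 in BLM. It was high in Lamp1-enriched cells like the 9 genes, with sorting ratios of 4.13 (4.09 to 4.17) and 4.24 (4.19 to 4.29), but it was higher in BLM, with a log2 ratio of 0.58 (0.57 to 0.60) in Lamp1-enriched cells. Of the 7 genes on this list, 6 were at least 8-fold higher with the sort in sham (median 3.42) and 4 in BLM (median 3.55), and the edgeR quasi-likelihood test called 6 higher and 0 lower. With BLM 2 of 7 were at least 2-fold lower in unsorted (median 0.30), 1 of 7 in Lamp1-enriched (median -0.57) and 0 of 7 in Lamp1-depleted cells (median 0.01). Cavin2 was lower in BLM in unsorted cells, at -1.68 (-1.72 to -1.65), and Thbs1 was not, at 0.40 (0.37 to 0.43).

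Chemokine genes near Pf4 and Ppbp on the chromosome did not follow them as a group. Of 5 such genes, 1 was at least 8-fold higher with the sort in sham (median 1.05) and 1 in BLM (median 1.75), in each case Cxcl5 against 0 reads in Lamp1-depleted cells. With BLM 2 of 5 were at least 2-fold lower and 3 higher in unsorted cells (median 1.70), 2 lower and 2 higher in Lamp1-enriched cells (median 0.11), and 1 of 4 lower and 3 higher in Lamp1-depleted cells (median 1.81). Cxcl15, a chemokine of lung epithelium, had a log2 ratio of BLM over sham of -2.80 (-2.89 to -2.71) in unsorted cells, close to Ppbp at -2.82 (-2.91 to -2.73). Cxcl2 lay at 2.22 (2.16 to 2.29) and Cxcl1 at 3.15 (2.95 to 3.37) in the same cells. The edgeR quasi-likelihood test of the sort called 2 of the 5 higher and 1 lower.

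Red blood cell genes were, like the 9 genes, lower in BLM, but unlike them had medians below 0 in the sort. The 11 genes of the erythroid list summed, in the order used above, to 527, 185 and 181 CPM in sham and to 82.6, 45.4 and 32.0 in BLM. Hbb-bs was the most abundant in the sham libraries and in BLM Lamp1-enriched cells and Hba-a1 in the other 2, and Rhag was at 0 in BLM Lamp1-depleted cells. With BLM 9 of 9 tested erythroid genes were at least 2-fold lower in unsorted (median -2.31), 8 of 9 in Lamp1-enriched (median -2.57) and 9 of 9 in Lamp1-depleted cells (median -2.10). With the sort 0 of 10 tested were 8-fold higher in sham (median -0.12) and 1 was 8-fold lower, Klf1 with 1 read in Lamp1-enriched and 16 in Lamp1-depleted cells. In BLM 0 of 6 were 8-fold apart in either direction (median -0.67), though Hba-a2 was lower in Lamp1-enriched cells, at log2 -1.03 (-1.34 to -0.72). The edgeR quasi-likelihood test called 0 of 8 in either direction, with 0 at an unadjusted p under 0.05 and 0 called by DESeq2. Set against erythroid reads, a measure chosen after seeing the data, the 9 genes had 61.6 reads per 100 in sham unsorted and 69.1 in BLM unsorted cells. The values were 24.2 and 32.3 in Lamp1-depleted and 588 and 487 in Lamp1-enriched cells, so that on this scale the treatments lay close together within each fraction. On this scale, computed without a prior, the median log2 ratio of BLM over sham was 0.47 in unsorted, -0.23 in Lamp1-enriched and 0.39 in Lamp1-depleted cells. The part of blood cell content in the lower level of the 9 genes in BLM was not tested.

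Endothelial genes were, like the 9 genes, higher in Lamp1-enriched cells. The 10 genes of that list summed to 5870, 1331 and 9351 CPM in sham and to 3333, 912 and 8845 in BLM. Cdh5 had the most reads in the unsorted and Lamp1-enriched libraries and Pecam1 in the Lamp1-depleted ones, and no gene of the list was at 0. With the sort 6 of 10 were at least 8-fold higher in sham (median 3.14) and 8 of 10 in BLM (median 3.54), and the edgeR quasi-likelihood test called 10 of 10 higher. With BLM 5 of 10 were at least 2-fold lower in unsorted (median -1.01), 0 of 10 in Lamp1-enriched (median -0.07) and 2 of 10 in Lamp1-depleted cells (median -0.56). Per 1000 endothelial reads, also chosen after seeing the data, the 9 genes had 55.3 reads in sham unsorted, 33.6 in sham Lamp1-depleted and 114 in sham Lamp1-enriched cells. In BLM they had 17.1, 16.1 and 17.6, so that on this scale the BLM fractions were nearly level and all lay below the sham ones. The median log2 ratio of Lamp1-enriched over Lamp1-depleted cells on this scale, computed without a prior, was 1.81 in sham and 0.01 in BLM. With the prior of 0.5 reads kept these were 1.79 and -0.02, so that the sign in BLM is not settled. The part of endothelial content, or of platelets attached to endothelial cells, in the sorting ratio was not tested.

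The lists of other lung cells differed from the 9 genes in at least 1 of the comparisons. In sham 8 of 8 T cell genes (median -4.38) and 6 of 6 B cell genes (median -4.22) were at least 8-fold lower in Lamp1-enriched than Lamp1-depleted cells. Neutrophil genes (0 of 6, median -0.43), alveolar macrophage genes (0 of 7, median 0.10), interstitial macrophage genes (1 of 8, median 0.18) and mast cell and basophil genes (1 of 7, median -0.33) were rarely 8-fold higher. Fibroblast genes (0 of 7, median 1.44) and epithelial genes (2 of 8, median 2.54) lay above 0 without reaching the median of the 9 genes. The BLM medians of the sort were -4.33 for T cell, -3.87 for B cell and -2.10 for neutrophil genes. They were 0.76 for alveolar macrophage, 0.56 for interstitial macrophage, 2.28 for fibroblast and 1.47 for epithelial genes. For mast cell and basophil genes the BLM median was 0.96, but only 4 genes were tested, 2 above 0 and 2 below. This median fell between Kit at 4.23 and Hdc at -2.32, and no tested gene lay near it. Cpa3, also above 0, had 17 against 0 reads. With BLM the medians in unsorted cells were 0.12 for T cell, -1.01 for B cell, 0.45 for neutrophil, 1.74 for alveolar macrophage and 3.24 for interstitial macrophage genes. They were -0.36 for mast cell and basophil, 0.03 for fibroblast and -0.48 for epithelial genes. The edgeR quasi-likelihood test of the sort called 0 of 8 T cell, 0 of 6 B cell, 0 of 6 neutrophil and 0 of 7 alveolar macrophage genes higher, and 2 of 8 interstitial macrophage, 1 of 5 mast cell and basophil, 5 of 7 fibroblast and 6 of 8 epithelial genes. It called 8 of 8 T cell, 6 of 6 B cell, 6 of 6 neutrophil and 2 of 5 mast cell and basophil genes lower, and none of the other lists in this paragraph. Those called higher included Lyve1 (log2 fold 4.04) of the interstitial macrophage list and Kit (3.57) of the mast cell and basophil list. These 2 genes held 92.2% and 98.8% of their list's reads in sham Lamp1-enriched cells. The median log2 folds of the 2 lists were 0.24 and -1.44, so neither list rose as a group.

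**Figure D5:**
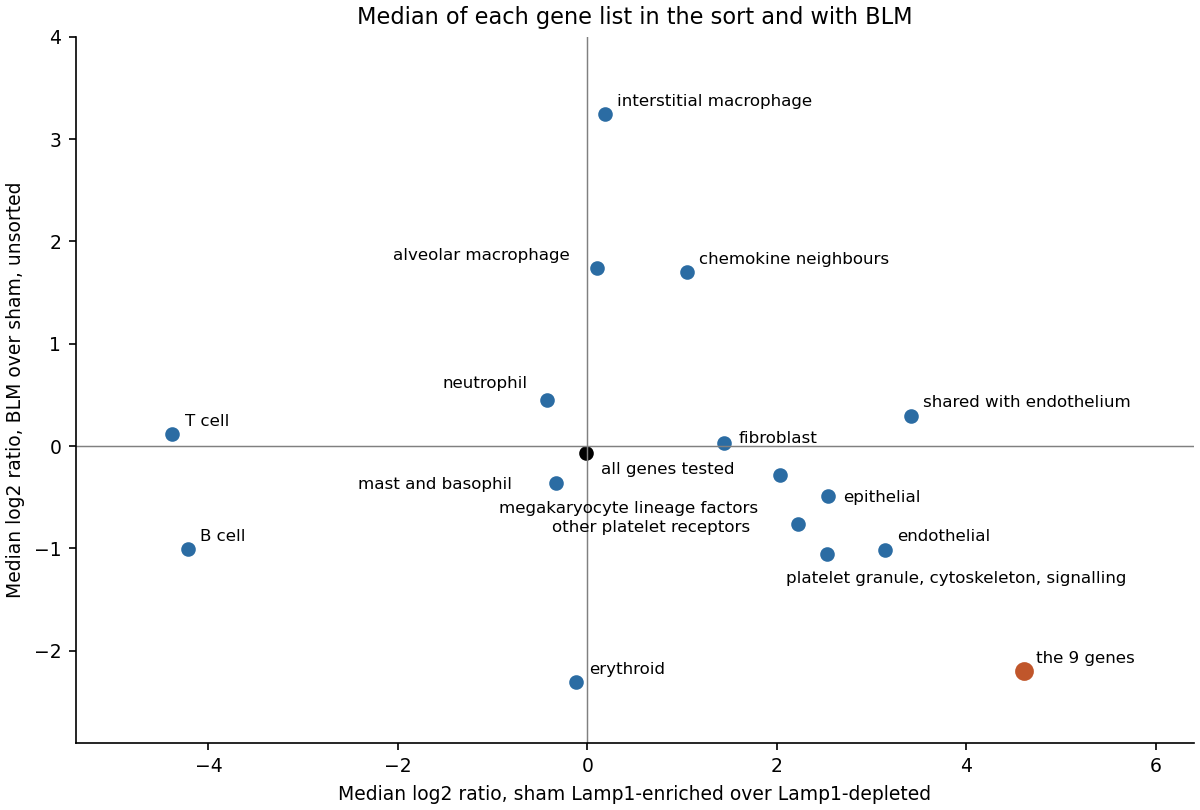
Median log2 ratio of each gene list, with Lamp1-enriched over Lamp1-depleted in sham on the horizontal axis and BLM over sham in unsorted cells on the vertical axis. The 9 genes (orange) lie at 4.61 and -2.20, the erythroid list at -0.12 and -2.31, the endothelial list at 3.14 and -1.01, and all genes tested (black) at -0.01 and -0.07.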

How the data were processed

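RNA of 6 mouse lung libraries was measured, 1 per condition. Per the submitters' notes reads were trimmed with Trimmomatic 0.36, aligned to GRCm38 with STAR 2.5.2b and counted with featureCounts of Subread 1.5.2; DESeq2 was named too. The authors deposited each gene as a raw count of reads, not normalized. Here TMM factors came from edgeR 4.0.16 (R 4.3.3): 1.19 unsorted, 1.15 Lamp1-depleted and 1.02 Lamp1-enriched for sham, and 0.993, 0.699 and 1.03 for BLM. Ratios used a prior of 0.5 reads (Python 3.11.15, numpy 2.4.6, scipy 1.17.1, pandas 2.3.3, matplotlib 3.10.9), with Clopper-Pearson intervals for ratios and exact Poisson intervals for levels. Genes reaching 10 reads in either library were tested; ratios of the 9 genes against 0 reads are given at a floor of 3 reads. The sorting test was edgeR's quasi-likelihood test with filterByExpr and a Benjamini-Hochberg adjusted threshold of 0.05. GENCODE M21 held 48970 of the identifiers. The programs were tested on simulated data.

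Besides the 9 genes, a gene could be named if it was among the 3 with the most reads in each of 15 lists, had the highest or lowest ratio of Lamp1-enriched over Lamp1-depleted cells of its list in a treatment, or was among the 10 with the nearest pattern; Lamp1, Ptprc and Gm26917 served as checks, and Sept5 and Gm49601 were named after their overlap with Gp1bb was seen. The 9 genes and the lists were chosen with earlier results of these data known. Alternatives were DESeq2 1.42.0 size factors, total counts only, totals outside Gm26917, a prior of 2, other read minimums and thresholds, thinned counts, and, added after seeing the data, reads relative to endothelial or erythroid genes, without a prior and with a floor of 3 reads. No replicate could be left out.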

Additional observations from a re-analysis of the deposited data

How the results depend on the processing

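Of 801 values under alternative settings (other normalizations, priors, read minimums, thresholds and thinned counts), the values on which the text rests gave 151 that stayed within their counting interval or close to the same count, 20 that moved and 3 that reversed; all other values gave 579, 42 and 6. The directions of all 9 genes in the sort and in unsorted and Lamp1-enriched cells of BLM over sham held under each scaling by library. In Lamp1-depleted cells the log2 ratio of BLM over sham reversed for Pf4 with total counts only (-0.69), totals outside Gm26917 (-0.0541) and thinned counts (-0.0400), for Gp1bb with total counts only (-0.56), and for Itga2b with DESeq2 size factors (0.12) and thinned counts (0.0493). The median of the 9 genes in sham Lamp1-enriched over unsorted cells was 1.45 with total counts only and 1.44 with totals outside Gm26917, and that of BLM over sham in sorted Lamp1-enriched cells -2.58 when counts were thinned. The median difference of the sorting ratio between treatments was -0.59 with total counts only, where the edgeR quasi-likelihood test called 4436 genes. In BLM 9 of the genes passed Lamp1-enriched over Lamp1-depleted at log2 1 (34.3% of all genes tested) and 9 at log2 2 (19.2%). At log2 2, 0 passed Lamp1-enriched over unsorted in sham (0.439% of all genes), 0 in BLM (2.37%), and 3 BLM over sham in Lamp1-depleted cells (7.65%). Relative to endothelial reads, chosen after seeing the data and computed without a prior, the medians were 1.81 in sham and 0.0149 in BLM for Lamp1-enriched over Lamp1-depleted, 1.01 and -0.00133 for Lamp1-enriched over unsorted, -0.79 and -0.13 for Lamp1-depleted over unsorted, and -1.39 for BLM over sham in unsorted cells. With the prior kept the BLM median for Lamp1-enriched over Lamp1-depleted was -0.02. Relative to erythroid reads, chosen and computed likewise, they were 3.22 in sham and 2.78 in BLM for Lamp1-enriched over unsorted, -1.42 in sham for Lamp1-depleted over unsorted, and 0.47 in unsorted, -0.23 in Lamp1-enriched and 0.39 in Lamp1-depleted cells for BLM over sham. For each of these the cause was not tested. Of the 10 genes with the nearest pattern, 7 were shared when at least 200 reads were required and 9 with total counts only.

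With 1 library of pooled lungs per condition, differences between animals and between conditions cannot be told apart. Depth limited the BLM Lamp1-depleted library most, where the 9 genes had 310 reads in all and Treml1 had 0, so that a level of Treml1 under the floor of 0.142 CPM was not detectable. Reads of Gp1bb and of the genes that overlap it cannot be told apart here. The sources used here do not say which libraries came from the same tube.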
